A study of Mus musculus with 6 samples.

Results

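The genes described here are p53 (Trp53) and 30 genes that control it or are known to be transcribed under its control, 31 genes in all of the 22939 in the count table. They were chosen by symbol: Trp53, its inhibitors Mdm2 and Mdm4, and established p53 target genes outside the BCL2 family. The rule itself uses no measured value, but the genes were chosen with earlier results of these data known. All 31 were counted deeply enough to be tested, among 13463 tested genes. The RNA-seq data cover 6 libraries of regulatory T (Treg) cells of the mouse, 3 of control cells (ctrl-Treg cells) and 3 of cells grown in the presence of the multikinase inhibitor sorafenib (Sora-Treg cells), which is given in liver cancer. Sorafenib is written Sora below. In both groups naive CD4 T cells of Foxp3-GFP mice, which report the Treg factor Foxp3 as green fluorescence, had been turned into Treg cells in culture with antibodies to CD3, CD28, IFN-γ and IL-4 and with TGF-β1, and the GFP-positive cells had then been sorted. The cells are therefore induced Treg cells made in a dish, not Treg cells taken from a thymus or a tumor. The labels give neither the Sora dose of these libraries nor an animal, litter, batch or date. The comparison answers whether transcripts of the p53 pathway differ between Treg cells made with and without Sora.

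p53 is a transcription factor that cells stabilize after DNA damage, nucleolar stress or oncogene activity. It binds paired copies of a short decamer in DNA and switches on genes that halt the cell cycle, repair DNA, change metabolism or kill the cell. Several of its targets act back on it, above all Mdm2, the ubiquitin ligase that sends p53 to the proteasome. In T cells p53 is known to restrain proliferation after antigen receptor stimulation, and the level of its protein is set mainly after translation, so a transcript level does not give the level of active p53.

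Library totals ranged from 30727686 to 37717324 counts. A floor of 3 counts stood at 0.0795 to 0.0976 CPM (for the floor, counts scaled to the library total alone), which covers counting error only. All CPM levels below are TMM-scaled, as described under the processing. The summed Treg markers (Cd3e, Cd4, Il2ra, Ctla4, Foxp3 and Ikzf2) ranged from 3605 to 3657 CPM in control and from 6301 to 6431 CPM in Sora, with Foxp3 itself at 252 to 278 CPM over the 6 libraries. The sum does not stand for each marker. Of the 6, 5 were called higher, against 29.7% of all tested genes, and 1 was a DEG, against 6.30%. Their median log2 fold change was 0.34, with a range from 0.02 to 1.53. The 7 myeloid markers summed to 24.9 to 93.5 CPM in control and to 20.8 to 42.9 CPM in Sora. Of the 7, 5 were called lower in Sora, against 29.9% of all tested genes, and all 5 were DEGs, against 4.97%. In none of the 7 did every Sora library lie below every control library. The myeloid markers were high in control libraries 1 and 2 and low in control library 3, where Lyz2 stood at 47.5, 47.9 and 12.6 CPM. For the p53 genes, the median in control library 3 lay 0.02 above the mean of control libraries 1 and 2 on the log2 scale. Single genes ranged from -0.09 to 0.23. The 5 B cell markers summed to 9.71 to 10.7 CPM in control and 6.09 to 7.68 CPM in Sora. All 4 that could be tested were called lower, against 29.9% of all tested genes, with a median log2 fold change of -2.13. Of these 4, 3 were DEGs, against 4.97% of all tested genes. The 4 CD8 T and NK markers summed to 13.2 to 15.2 and 12.6 to 13.9 CPM, and the 3 erythroid markers to at most 0.157 CPM. The part of myeloid and B cells in the results below was not tested. Whether the labels' replicates are separate cultures or animals is not stated, so the p-values measure only the spread between these libraries, which may be technical. In bulk RNA, fewer cells of a kind and less RNA per cell cannot be told apart.

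The decamer that p53 binds was looked for, on both strands, in the RefSeq start-site windows of GRCm38.p6, which run from 250 bases before a transcript's start to 50 bases after it. Windows were given for 25 of the 31 genes, and Rrm2b, Xpc, Ddb2, Zmat3, Trp53inp1 and Perp had none. The p53 decamer consensus occurred in 12 of the 25 genes (48.0%), against 9.55% of all 27025 genes with a window. By window the shares were 36.1% of 36 and 8.36% of 32851. A pair of decamers at most 13 bases apart was found among these genes in Cdkn1a alone, and in 20 genes (0.0740%) of the whole set. The sequences below are those of Trp53, Mdm2, Ppm1d, Cdkn1a, Ccng1, Gadd45a and Ei24, none of which changed more than 2-fold. Each is printed 5′ to 3′ on the strand of its gene, with the matching decamer in capitals.

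Trp53 (chr11:69580254-69580323, + strand, the decamer begins at -75 from the start): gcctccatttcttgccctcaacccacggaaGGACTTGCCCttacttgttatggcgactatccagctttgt
Mdm2 (chr10:117710905-117710974, - strand, -186): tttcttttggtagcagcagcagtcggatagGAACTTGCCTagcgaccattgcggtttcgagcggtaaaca
Ppm1d (chr11:85311092-85311161, + strand, -132): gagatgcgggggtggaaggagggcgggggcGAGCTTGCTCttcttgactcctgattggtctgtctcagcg
Cdkn1a (chr17:29090898-29090967, + strand, decamers at -73 and -51): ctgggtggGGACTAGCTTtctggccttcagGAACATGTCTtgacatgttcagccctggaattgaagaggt
Ccng1 (chr11:40755432-40755501, - strand, -185): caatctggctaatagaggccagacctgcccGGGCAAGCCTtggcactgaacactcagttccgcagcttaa
Gadd45a (chr6:67037408-67037477, - strand, -40): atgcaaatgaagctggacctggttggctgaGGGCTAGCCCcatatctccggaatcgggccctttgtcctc
Ei24 (chr9:36797335-36797374, - strand, -10, printed up to the base before the start): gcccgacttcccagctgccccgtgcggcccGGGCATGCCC

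Trp53 and Wrap53 are neighbours on opposite strands, and the Trp53 decamer above is also the one counted for Wrap53, read from the other strand. The other genes with a match were Sesn1, Polk, Aen and Abhd4. A match is a description of letters and no site of binding, and known p53 sites that lie deeper in a gene or farther upstream are outside these windows. The 12 genes with a decamer had a median log2 fold change of -0.50 (range -1.01 to -0.20) and the 13 without one a median of -0.61 (range -2.78 to -0.06), so the spans of the 2 sets overlapped. Of the 12, 1 (Aen) was called and more than 2-fold lower, and of the 13, 5 were, against 4.97% of all tested genes.

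Transcripts of 28 of the 31 genes fell in Sora-Treg cells, none rose, and Rrm2b, Xpc and Ddb2 did not pass the test (edgeR quasi-likelihood test, adjusted p under 0.05). Over all tested genes 59.6% were called, 29.9% lower and 29.7% higher, so the share called lower among the p53 genes, 90.3%, stood against a background of 29.9%. Of the 31, 7 were differentially expressed genes (DEGs), that is called and more than 2-fold lower: Ak1, Psrc1, Zmat3, Phlda3, Ephx1, Dcxr and Aen, against 4.97% of all tested genes. None was a DEG in the other direction, against 6.30%. The median log2 fold change was -0.47, and that of all tested genes -0.0035, with 5% of all tested genes below -1.04 and 25% below -0.28. In 28 of the 31 genes every Sora library lay below every control library, against 32.0% of all tested genes (63.7% when either direction is counted). Without control libraries 1 and 2, those high in myeloid markers, the median log2 fold change of the 31 genes was -0.56. That fit holds a single control library, which is assumed to vary like the Sora libraries.

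The downward shift was of like size in each Sora library. Relative to the control mean of each gene, the median over the 31 genes was -0.52, -0.59 and -0.56 on the log2 scale in Sora libraries 1, 2 and 3. In the control libraries it was -0.0027, -0.0053 and 0.01. With library totals in place of TMM scaling all tested genes moved down by 0.12 at the median, which changed the calls over all genes from 3994 higher and 4028 lower to 2862 higher and 5614 lower, while the p53 genes gave 0 higher and 28 lower under both.

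**Figure D1:**
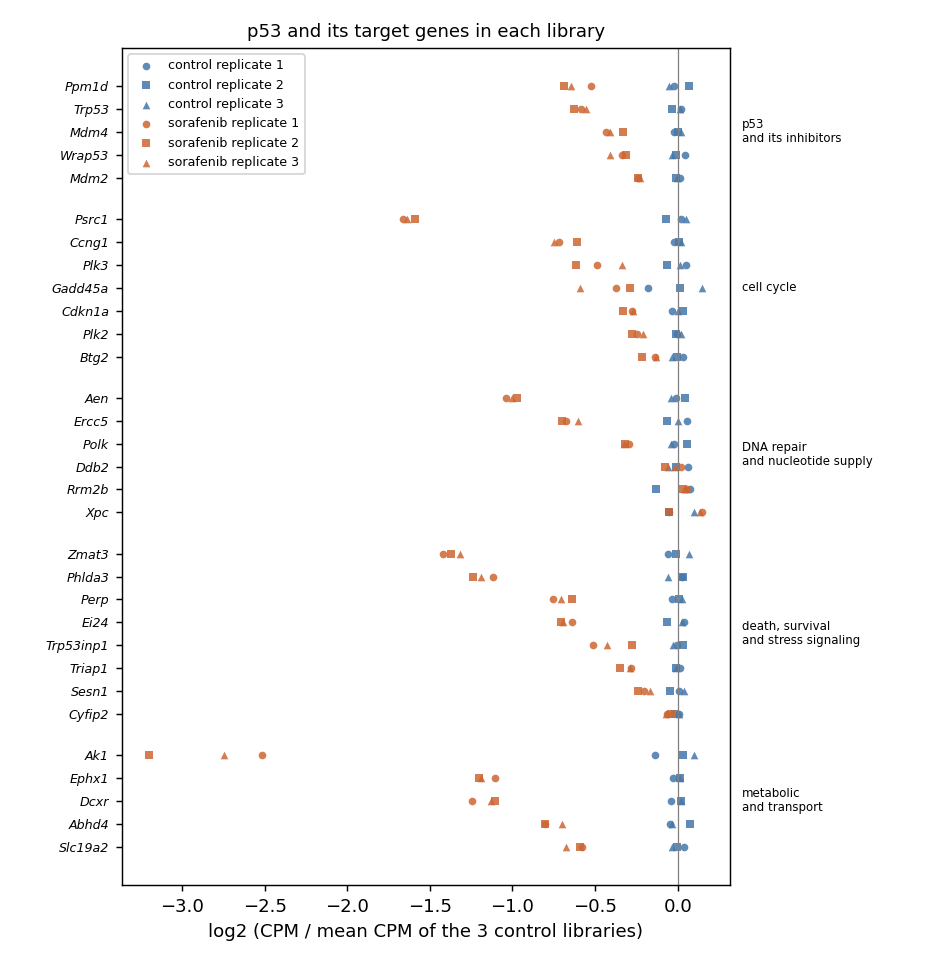
Each row is 1 gene of the p53 list, grouped by role, and the x axis gives the log2 ratio of its TMM-scaled CPM in a library to the mean of the 3 control libraries. Blue marks are control and orange marks Sora libraries, with a shape for each replicate, and the orange marks lie left of every blue mark in 28 rows, from Ak1 near -3 to Cyfip2 just below 0.

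Trp53 itself (chr11:69580348-69591873, + strand) stood at 146, 140 and 145 CPM in the control libraries and at 95.7, 93.1 and 97.7 CPM in the Sora libraries. The groups were far apart, and no Sora library reached 100 CPM. The means were 144 ± 3.02 and 95.5 ± 2.29 CPM (SD, n = 3), a level 33.6% lower in Sora and a log2 fold change of -0.59 ± 0.04 (SE, adjusted p = 1.37e-12). Trp53 ranked 15 of 31 from the most negative change, so the gene for the factor moved about as much as the middle of its targets.

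The genes that act back on p53, and Wrap53, the neighbour of Trp53, fell as well. Mdm2 (chr10:117688875-117710758, - strand), whose product ubiquitinates p53 and whose gene p53 activates, had 251, 247 and 248 CPM in control and 211, 210 and 212 CPM in Sora. This is a small but tight difference, 15.1% lower with a log2 fold change of -0.24 ± 0.03 (adjusted p = 1.97e-07). Mdm4, the Mdm2 relative that binds p53 and blocks its activation domain, had 614, 625 and 632 CPM in control and 461, 495 and 469 CPM in Sora. Its log2 fold change was -0.39 ± 0.03 (adjusted p = 3.67e-11), and the lowest control library exceeded the highest Sora library by more than the range within either group. Ppm1d, the phosphatase Wip1 that removes activating phosphates from p53 and from the kinases above it, had 30.4, 32.3 and 29.7 CPM in control and 21.4, 19.2 and 19.7 CPM in Sora. The Ppm1d groups did not overlap, and its fall by 0.62 ± 0.07 on the log2 scale (adjusted p = 3.33e-08) was the most negative of the 5 genes in this role. Wrap53, which encodes a telomerase and Cajal body protein and whose locus also gives an antisense transcript to Trp53, had 21.1, 20.3 and 19.9 CPM in control and 16.1, 16.4 and 15.4 CPM in Sora. The log2 fold change was -0.35 ± 0.07 (adjusted p = 2.28e-04). In the GENCODE M21 annotation Trp53 and Wrap53 share no exon bases, but whether counting used the strand was not stated in the sources used here.

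Per length, the levels of Mdm2 and Mdm4 relative to that of Trp53 were higher in every Sora library than in any control library. The ratio of Mdm2 to Trp53 in FPKM was 0.533, 0.543 and 0.526 in control and 0.680, 0.698 and 0.671 in Sora. The ratio of Mdm4 to Trp53 was 1.31, 1.39 and 1.35 in control and 1.5, 1.66 and 1.49 in Sora. The ratio of Cdkn1a to Trp53 was 3.14, 3.40 and 3.21 in control and 4.03, 3.99 and 3.97 in Sora, also without overlap. Gene length cancels between the groups, so a higher ratio in Sora only restates that a gene fell less than Trp53. The log2 fold changes were -0.24 for Mdm2, -0.39 for Mdm4, -0.29 for Cdkn1a and -0.59 for Trp53. Only 25% of all tested genes lay below -0.28, so a higher ratio to Trp53 was common. The exact permutation test, two-sided, gave p = 0.1 for each (adjusted p = 0.1 over 3 ratios), the smallest that 3 libraries against 3 can give. These 3 ratios were chosen after the values had been seen, so neither the separation nor the test lends them support.

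All 7 genes grouped under the cell cycle were called lower, against 29.9% of all tested genes, and 1 was a DEG, against 4.97%. Their median log2 fold change was -0.41. The group holds regulators of several kinds, and its 1 DEG, Psrc1, is not an inhibitor of the cycle. Psrc1, which encodes a microtubule-binding protein of the mitotic spindle, had 123, 116 and 126 CPM in control and 38.4, 40.3 and 39.1 CPM in Sora. The level in Sora was 67.7% lower, the log2 fold change -1.63 ± 0.04 (adjusted p = 4.89e-19), and the 3 Sora libraries lay within 2 CPM of each other. Ccng1, cyclin G1, which recruits a phosphatase to Mdm2, had 505, 516 and 521 CPM in control and 312, 337 and 306 CPM in Sora. It fell by 0.69 ± 0.03 on the log2 scale (adjusted p = 1.08e-14), with no overlap between the groups. Cdkn1a (chr17:29090979-29100722, + strand), the gene of the CDK inhibitor p21 and the classic p53 target, falls outside the naming rule by its size of change and is given because of that role. It had 406, 425 and 415 CPM in control and 343, 330 and 345 CPM in Sora, which is 18.3% lower. Its log2 fold change of -0.29 ± 0.03 (adjusted p = 5.55e-09) ranked 23 of 31 from the most negative, and that of Mdm2 ranked 25.

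Plk3, a stress-responsive polo-like kinase, had 35.9, 33.1 and 35.0 CPM in control and 24.7, 22.7 and 27.5 CPM in Sora, a log2 fold change of -0.47 ± 0.07 (adjusted p = 2.32e-06). Gadd45a, which encodes a small protein that binds PCNA and p21 after DNA damage, had 10.6, 12.1 and 13.2 CPM in control and 9.23, 9.79 and 7.95 CPM in Sora. The groups came close to touching, since the lowest control and the highest Sora library differed by less than either group's range, and the log2 fold change was -0.41 ± 0.11 (adjusted p = 0.00195). On the opposite strand E230016M11Rik shares 19.1% of the exon bases of Gadd45a, but it held only 41 counts in control and 24 in Sora. Plk2, a second polo-like kinase, fell by 0.24 ± 0.03 (adjusted p = 2.69e-06), and Btg2, an antiproliferative adaptor of the deadenylase complex, by 0.16 ± 0.04 (adjusted p = 0.00204).

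All 8 genes of cell death, survival and stress signaling were called lower, against 29.9% of all tested genes. Of the 8, 2 were DEGs, against 4.97%, and the median log2 fold change was -0.54. Zmat3, an RNA-binding protein that regulates splicing, had 165, 171 and 180 CPM in control and 64.2, 66.4 and 69.0 CPM in Sora. That is a level 61.3% lower and a log2 fold change of -1.37 ± 0.04 (adjusted p = 2.91e-18). Phlda3, whose product competes with AKT for membrane lipids and so represses AKT, had 83.7, 84.2 and 79.1 CPM in control and 37.9, 34.9 and 36.1 CPM in Sora. Its level was 55.9% lower, with a log2 fold change of -1.18 ± 0.05 (adjusted p = 5.26e-16) and a gap between the groups many times the range within them.

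Perp, a membrane protein of p53-dependent apoptosis and of desmosomes, had 40.0, 41.1 and 41.7 CPM in control and 24.3, 26.3 and 25.1 CPM in Sora. Its log2 fold change of -0.70 ± 0.06 (adjusted p = 2.15e-10) was close to that of Ei24. Ei24, an endoplasmic reticulum protein needed for autophagy, had 132, 123 and 131 CPM in control and 82.7, 78.8 and 79.5 CPM in Sora, a log2 fold change of -0.68 ± 0.04 (adjusted p = 5.68e-13). Neither gene overlapped between the groups. Trp53inp1, a p53-induced nuclear protein that also acts in autophagy, had 335, 342 and 329 CPM in control and 235, 277 and 249 CPM in Sora. Sora library 2 was the highest of its group here and the log2 fold change was -0.40 ± 0.04 (adjusted p = 1.21e-08). Triap1, which carries phosphatidic acid within mitochondria and promotes survival, had 24.0, 23.6 and 23.6 CPM in control and 19.5, 18.6 and 19.5 CPM in Sora. This was a log2 fold change of -0.31 ± 0.07 (adjusted p = 4.13e-04).

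The remaining pair of this role changed least. Sesn1, a sestrin that restrains mTORC1 when leucine is scarce, fell by 0.20 ± 0.05 (adjusted p = 0.00107). Cyfip2, a subunit of the WAVE complex that drives actin branching and is abundant in T cells, stood at 527 ± 4.68 CPM in control and 506 ± 5.8 CPM in Sora. That difference of -0.06 ± 0.03 on the log2 scale (adjusted p = 0.0450) was the weakest call of the list, and it was lost in 9 of 18 alternatives, among them the fits without any 1 library other than Sora library 2.

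Genes of DNA repair and nucleotide supply were divided, with 3 of 6 called lower, against 29.9% of all tested genes. Of the 6, 1 was a DEG, against 4.97%, and the median log2 fold change was -0.17. Aen, the DEG of this group, encodes an exonuclease that digests DNA in dying cells and is not a repair gene. Its levels were 98.9, 102 and 96.8 CPM in control and 48.4, 50.6 and 49.6 CPM in Sora. It was 50.2% lower and fell by 1.01 ± 0.04 on the log2 scale (adjusted p = 1.17e-15), which puts it only just past the 2-fold limit for a DEG. Leaving out control library 2 or Sora library 1 took it inside that limit, with 6 DEGs left. Ercc5, the endonuclease XPG of nucleotide excision repair, had 96.2, 88.3 and 92.7 CPM in control and 57.8, 56.8 and 60.7 CPM in Sora. It changed by -0.66 ± 0.04 on the log2 scale (adjusted p = 6.55e-12). Polk, a polymerase that copies past damaged bases, had 78.3, 82.8 and 77.4 CPM in control and 64.9, 63.6 and 63.6 CPM in Sora, a log2 fold change of -0.31 ± 0.04 (adjusted p = 6.54e-07). All 3 were without overlap between the groups.

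The other 3 genes of this role overlapped between the groups and passed no test. Rrm2b, the p53-inducible subunit of ribonucleotide reductase, had 22.5, 19.5 and 22.1 CPM in control and 22.2, 21.8 and 21.9 CPM in Sora (log2 fold change 0.04 ± 0.07, adjusted p = 0.644). Xpc, which recognizes bulky DNA lesions, had 28.2, 28.2 and 31.3 CPM in control and 32.5, 28.2 and 32.2 CPM in Sora (0.08 ± 0.07, adjusted p = 0.290). Ddb2, the partner of Xpc that finds ultraviolet lesions in chromatin, had 27.4, 26.1 and 25.2 CPM in control and 26.6, 24.9 and 26.0 CPM in Sora (-0.02 ± 0.06, adjusted p = 0.760). The sign of all 3 turned in some alternatives, so no direction can be read from them. Ddb2 is uncertain for a further reason, since 23.8% of its exon bases overlap Acp2 on the opposite strand, a gene with 2190 counts in control and 2279 in Sora beside 2836 and 2527 for Ddb2, and without strand these reads cannot be told apart.

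The metabolic and transport genes changed most, with 5 of 5 called lower, against 29.9% of all tested genes. Of the 5, 3 were DEGs, against 4.97%, and the median log2 fold change was -1.16. Ak1, the adenylate kinase that interconverts adenine nucleotides, was the lowest gene of the list and had 175, 182 and 167 counts in the control libraries and 26, 17 and 26 in the Sora libraries. In CPM this was 4.44, 5.0 and 5.23 against 0.857, 0.533 and 0.730, a level 85.5% lower. Its log2 fold change was -2.78 ± 0.22 (adjusted p = 2.38e-10), with a standard error larger than that of any other gene of the list and a range over the alternatives from -2.93 to -1.22, the latter on the log2(FPKM + 1) scale, which understates changes of low genes. Ephx1, the microsomal epoxide hydrolase that detoxifies reactive epoxides, had 130, 134 and 134 CPM in control and 61.9, 57.7 and 58.1 CPM in Sora. It changed by -1.17 ± 0.04 on the log2 scale (adjusted p = 2.86e-17). Dcxr, a reductase of dicarbonyls and L-xylulose, had 23.4, 24.4 and 24.4 CPM in control and 10.1, 11.2 and 11 CPM in Sora, a log2 fold change of -1.16 ± 0.08 (adjusted p = 9.11e-12). Both were more than 55% lower in Sora.

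Abhd4, a lipase of N-acyl phospholipids, had 45.4, 49.3 and 45.8 CPM in control and 26.8, 26.8 and 28.8 CPM in Sora (log2 fold change -0.77 ± 0.05, adjusted p = 3.43e-11). Slc19a2, the high-affinity thiamine transporter, had 51.0, 49.5 and 48.6 CPM in control and 33.3, 33.0 and 31.1 CPM in Sora (-0.61 ± 0.05, adjusted p = 3.55e-10). For both genes the groups stood apart by more than 3 times the range within either group.

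**Figure D2:**
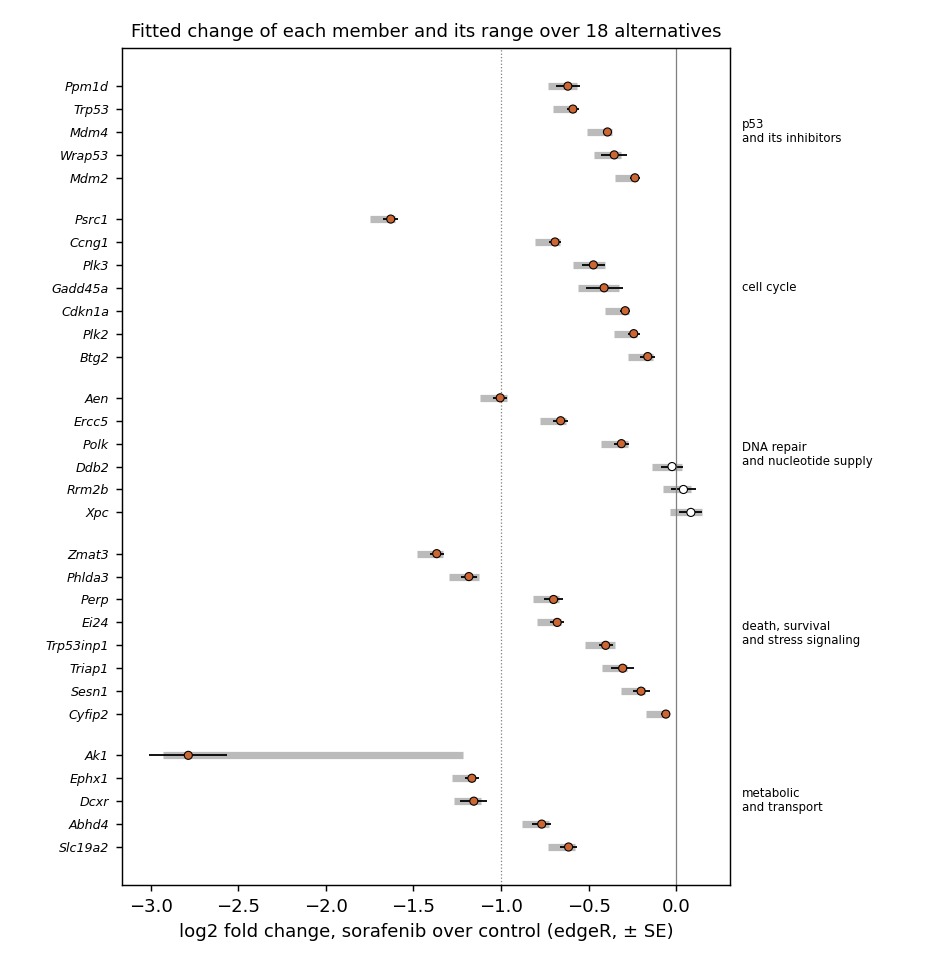
For each gene the point is the edgeR log2 fold change of Sora over control with its SE as a thin line, and the grey bar spans its values over the 18 alternatives. Filled points passed the test and the 3 open ones (Rrm2b, Xpc and Ddb2) did not, and the dotted line at -1 is the DEG limit, with 7 points to its left and Aen on its edge.

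Read per length, as FPKM, which sets levels of different genes side by side, Cdkn1a was the highest of the 31 genes in both groups, at 212 ± 4.03 FPKM in control and 160 ± 3.94 in Sora (SD, n = 3). FPKM was scaled by the library total and not by TMM, so its differences run lower than those in CPM. Ccng1 followed with 153 ± 2.04 and 87.6 ± 4.40 FPKM and Mdm4 with 88.2 ± 1.07 and 62.0 ± 2.23 FPKM, so the order of the leading 3 was the same in both groups. Ephx1 and Psrc1 came next in control, at 79.5 ± 1.08 and 71.3 ± 3.21 FPKM, and dropped to ranks 7 and 12 in Sora, at 32.7 ± 1.32 and 21.3 ± 0.485 FPKM. Trp53 was at 65.3 ± 1.53 FPKM in control, rank 6, beside Trp53inp1 at 64.2 ± 1.23, and these neighbours did not differ beyond their spread. In Sora Trp53 stood at 40.0 ± 0.984 and Trp53inp1 at 44.8 ± 3.73 FPKM. Mdm2 had 34.9 ± 0.461 and 27.3 ± 0.117 FPKM. At the low end were Xpc, Wrap53, Rrm2b and Ak1 in control, at 8.37 ± 0.503, 7.45 ± 0.238, 4.25 ± 0.329 and 1.93 ± 0.154 FPKM. Zmat3 moved furthest down the order of levels among the DEGs, from rank 16 (22.0 ± 0.956 FPKM) to rank 25 (7.87 ± 0.273 FPKM).

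**Figure D3:**
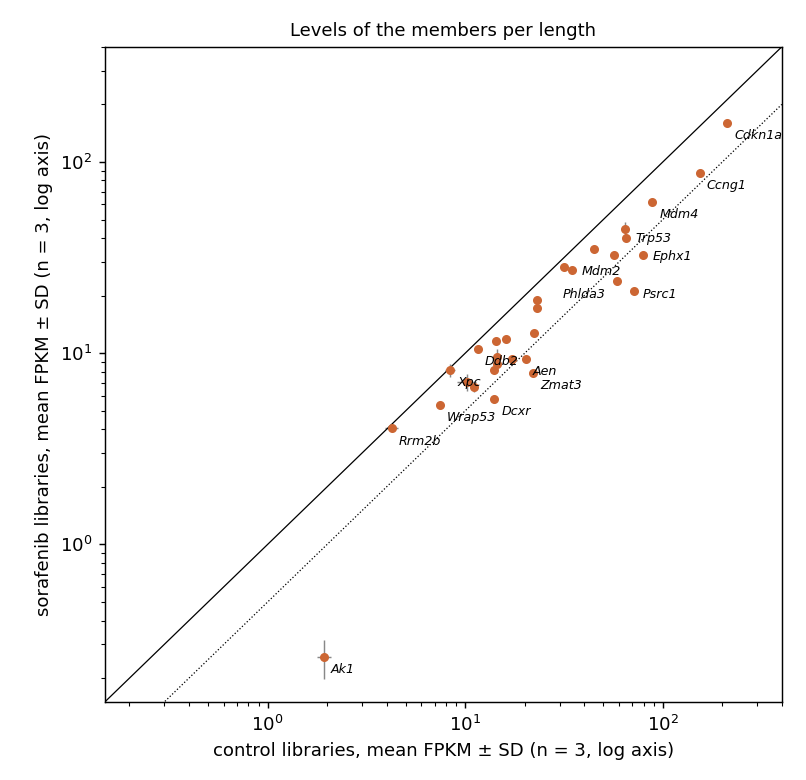
Each point is 1 of the 31 genes, with its mean FPKM over the 3 control libraries on the x axis and over the 3 Sora libraries on the y axis, both log axes, with SD as error bars. The solid line marks equal levels and the dotted line a 2-fold lower level, and Cdkn1a lies at the top, Ak1 at the bottom, with Psrc1, Ephx1, Phlda3, Zmat3, Dcxr, Aen and Ak1 below the dotted line.

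A further 32 known p53 targets that are not among the 31 showed a more mixed picture. Of the 28 tested, 6 rose and 17 (60.7%) fell, against 29.7% and 29.9% of all tested genes. Of those that fell 8 were DEGs, against 4.97% of all tested genes, and the median log2 fold change was -0.29. The leading genes were Gtse1, a p53-binding protein of the G2 phase (110 ± 1.67 CPM in control and 41.7 ± 0.755 in Sora, -1.41 ± 0.04, adjusted p = 1.69e-18), and Zfp365, a zinc finger gene of genome stability (28.7 ± 1.59 and 5.65 ± 0.179 CPM, -2.34 ± 0.08, adjusted p = 1.18e-16). The death receptor genes Fas and Tnfrsf10b changed by -1.13 ± 0.04 (adjusted p = 2.16e-16) and -1.08 ± 0.05 (adjusted p = 4.42e-15). Sesn2, the stress-inducible sestrin, changed by -1.15 ± 0.05 (adjusted p = 5.78e-16), and Pidd1, the scaffold of the PIDDosome, by -1.22 ± 0.06 (adjusted p = 1.26e-14). The last 2 DEGs were sparse: Eda2r had 21, 23 and 15 counts in control and 1 count in each Sora library, and Steap3 had 12, 20 and 10 counts against 8, 2 and 2, with its call lost without control library 2, Sora library 2 or Sora library 3 and in 3 other alternatives. Gls2, a mitochondrial glutaminase and p53 target picked out after its values were seen, went the other way, from 26.5 ± 1.22 to 44.5 ± 1.36 CPM (0.75 ± 0.05, adjusted p = 5.46e-11).

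Genes that act on p53 from above were not shifted as a group. Of 33 tested regulators 10 rose and 11 (33.3%) fell, near the 29.7% and 29.9% of all tested genes. None was a DEG, against 6.30% higher and 4.97% lower among all tested genes. The median log2 fold change was 0.02, beside the -0.0035 of all tested genes. The coactivator Ep300, which acetylates p53, rose from 170 ± 1.76 to 240 ± 4.73 CPM (0.50 ± 0.03, adjusted p = 1.78e-12). Hipk2, a kinase that phosphorylates p53 for apoptosis, rose by 0.35 ± 0.03 (adjusted p = 6.94e-09), Ing1, a chromatin reader, by 0.37 ± 0.04 (adjusted p = 1.68e-08), and Nop53, a nucleolar p53 stabilizer, by 0.27 ± 0.03 (adjusted p = 2.42e-08). Chek1 and Chek2, each the gene of a checkpoint kinase, went down. Chek1 went from 31.2 ± 0.401 to 15.8 ± 2.87 CPM (-0.98 ± 0.09, adjusted p = 2.58e-09) and Chek2 from 22.1 ± 0.856 to 12.7 ± 0.0897 CPM (-0.80 ± 0.07, adjusted p = 3.30e-09). With library totals in place of TMM scaling, 19 regulators were called lower, while the genes called lower among all 13463 tested went from 4028 to 5614. Cdkn2a, which gives the Mdm2 inhibitor ARF, was under the filter on low counts, with 27, 16 and 6 counts in control and 6, 2 and 2 in Sora. Of the p53 family, Trp73 had 24 to 38 counts in control and 10 to 22 in Sora (-0.65 ± 0.39, adjusted p = 0.158). The counted genes did not include the symbol Trp63, so it was not analysed here.

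p53 also lowers proliferation genes indirectly, through p21 and the DREAM repressor complex. All 25 listed DREAM target genes were called lower, against 29.9% of all tested genes. None was a DEG, against 4.97% of all tested genes in that direction. Their median log2 fold change was -0.75, with a range from -0.995 to -0.47. The leading ones were Top2a, the topoisomerase of dividing cells (603 ± 11.8 to 384 ± 3.65 CPM, -0.65 ± 0.03, adjusted p = 8.06e-16), Mcm5 of the replicative helicase (-0.75 ± 0.03, adjusted p = 9.11e-15) and Mki67, the proliferation antigen (-0.68 ± 0.03, adjusted p = 2.14e-14). Foxm1, Brca1 and Ccna2 changed by -0.85 ± 0.05, -0.93 ± 0.05 and -0.83 ± 0.04 (adjusted p = 2.17e-13, 2.23e-13 and 2.23e-13). These genes vary with the share of dividing cells, and the part of that share in the values of the p53 genes was not tested. Trp53 and Cdkn1a themselves changed by -0.59 and -0.29, and the part of p53 in the values of the DREAM targets was not tested either.

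**Figure D4:**
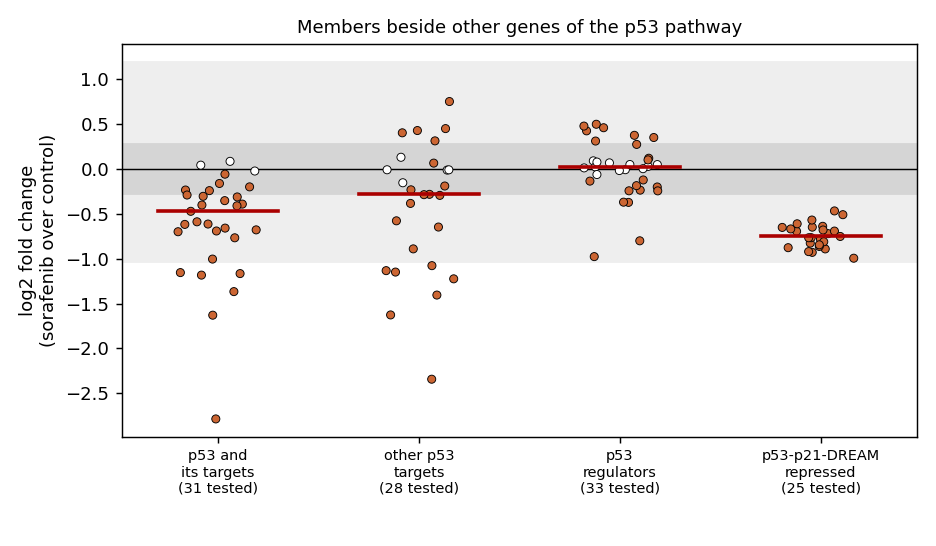
Points are tested genes of 4 lists, placed by their edgeR log2 fold change of Sora over control on the y axis, filled where the adjusted p was under 0.05, with the median of each list as a red line. Grey bands hold the middle 90% (light) and 50% (dark) of all tested genes around their median near 0, Eda2r is not drawn because of its single counts in Sora, and the medians are -0.47, -0.29, 0.02 and -0.75 from left to right.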

How the data were processed

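Raw read counts per gene symbol (unit counts) were deposited by the authors for 22939 genes, together with FPKM values, which the authors deposited for the same genes and libraries. Each FPKM equalled the count over the product of the library total and 1 length for each gene (largest relative difference of the implied length 1.64e-06 over 22939 genes), so it is no separate measurement. The submitters' processing notes name fastp, HISAT2, HTSeq, R 3.2.0, DESeq2 and the build GRCm39, while the methods of the study name Bowtie2, GRCm38 and an expectation-maximization step. Which of these made the tables, the annotation release and the use of strand are not given in the sources used here, and reads shared by overlapping genes are uncertain. Sequences and positions are RefSeq's, of GRCm38.p6, matched by symbol.

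Groups and replicate numbers came from the sample titles. Replicate pairs differed by more than sampling noise (chi-square per degree of freedom 3.48 to 6.23), so each library counted as 1 sample. Counts were tested with the quasi-likelihood F-test of edgeR 4.0.16 (R 4.3.3) over all 6 libraries, with TMM scaling, filterByExpr (13463 genes), no covariate and Benjamini-Hochberg adjustment over all tested genes. Called means an adjusted p under 0.05, and a DEG also had an absolute log2 fold change over 1. Levels are TMM-scaled CPM, mean ± SD, and the SE of a log2 fold change is the one its F statistic implies. The alternatives were scaling by RLE, by the upper quartile or by library size, 2 other count filters, DESeq2 1.42.0, robust fitting, limma 3.58.1 on log2(FPKM + 1) and log2(FPKM + 0.1), a replicate block, and leaving out libraries.

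The other lists, like the 31 genes, were chosen with earlier results of these data known. Every library's value is given for Trp53, Mdm2, Mdm4, Wrap53, the DEGs and the 12 genes next in size of change, and, outside that rule, for Cdkn1a and the 3 genes that were not called. Of other lists the text names the 6 genes with the smallest adjusted p and all DEGs. The counted genes did not include the symbol Sco2, so it was not analysed here.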

Additional observations from a re-analysis of the deposited data

How the results depend on the processing

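Over 18 alternatives the count of p53 genes called lower stayed between 26 and 29, with 0 called higher, and 6 or 7 were DEGs. For 26 of the 31 genes neither direction nor call changed. Cyfip2 lost its call in 9 alternatives, among them RLE scaling, the CPM filter and 5 of the 6 fits that left out 1 library. Btg2 lost its call without control libraries 1 and 2 (-0.13), the fit without the libraries high in myeloid transcripts. That fit has 1 control library, so its spread comes from the Sora libraries alone. The numbers did not pair the libraries (correlation of deviations -0.0438, 0.0591 and 0.0299 over 13463 genes), and with the replicate block 27 p53 genes were lower (Cyfip2 lost) and 4057 genes rose and 4064 fell overall.

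The median of the p53 genes moved from -0.47 to -0.51 with upper quartile scaling, -0.59 with library size alone, -0.55 on log2(FPKM + 1) with or without the filter, -0.59 on log2(FPKM + 0.1) and -0.56 without control libraries 1 and 2. Leaving out 1 library gave -0.55 to -0.46. Library size alone and the FPKM scales lack the TMM shift. Under them the regulators called lower numbered 19, 18 (FPKM + 1), 18 (FPKM + 0.1) and 17 (FPKM + 1, no filter) in place of 11. Among all tested genes 5614, 5037, 5029 and 4973 were called lower under the same settings, in place of 4028. The genes tested there numbered 13463, 11229, 11229 and 22939. Genes called higher numbered 2456, 2453 and 2577 on those FPKM scales in place of 3994. Rrm2b turned to -0.0748 with library size alone, -0.0583 on log2(FPKM + 1) with or without the filter, -0.0701 on log2(FPKM + 0.1) and -0.00726 without control libraries 1 and 2, and ranged from -0.0179 to 0.0830 over the fits without 1 library. Xpc turned to -0.0321, -0.0314, -0.0349 and -0.0158 under the same settings. Ddb2 turned to 0.0119 without control library 1, 0.00229 without Sora library 2 and 0.0346 without control libraries 1 and 2, ranged from -0.0529 to 0.0119 over the fits without 1 library, and was called lower on the filtered FPKM scales (-0.13 and -0.14). The cause was not tested. Genes near the floor of 3 counts, such as Eda2r, Steap3 and Cdkn2a, are limited by depth, and 3 libraries a group leave small differences such as that of Xpc undecided.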

Other observations

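Some p53 targets outside the lists above were looked at after the first results were known. Of the BCL2-family targets, which p53 uses to open the mitochondrial membrane, only 3 were looked at. All 3 were called lower, against 29.9% of all tested genes. Bbc3 (PUMA) went from 49.4 ± 0.986 to 31.2 ± 1.78 CPM (SD, n = 3, log2 fold change -0.66 ± 0.05, adjusted p = 2.11e-10). Pmaip1 (NOXA) went from 34.1 ± 1.58 to 20.1 ± 1.16 CPM (-0.76 ± 0.07, adjusted p = 8.36e-10) and Bax from 141 ± 4.67 to 112 ± 3.77 CPM (-0.34 ± 0.04, adjusted p = 3.17e-08). In each of the 3 genes every Sora library lay below every control library, as in 32.0% of all tested genes.

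Noncoding targets of p53 did not share a direction. Trp53cor1 (lincRNA-p21, the neighbour of Cdkn1a) had 6.27, 6.57 and 6.98 CPM in control and 3.26, 3.33 and 3.2 CPM in Sora (-1.02 ± 0.14, adjusted p = 1.13e-06), and Pvt1, the neighbour of Myc, fell by 0.97 ± 0.06 (adjusted p = 7.46e-12). Neat1, the RNA scaffold of nuclear paraspeckles, rose from 119 ± 6.95 to 284 ± 11.9 CPM (1.26 ± 0.04, adjusted p = 8.46e-18). Among the sestrins, Sesn3 overlapped between the groups, with 80.8, 80.6 and 85.7 CPM in control and 74.6, 74.9 and 81.7 CPM in Sora (-0.09 ± 0.04, adjusted p = 0.0672), beside the called decreases of Sesn1 and Sesn2. Its call depended on the processing, since it passed in 8 of 18 alternatives, each time with a negative value.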
